A study of Mus musculus with 16 samples.

Results

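The genes of the mitochondrial oxidative phosphorylation machinery were read on 16 Illumina bead arrays of mouse embryonic fibroblasts that carry or lack Hmgb1. Members were taken by symbol: every gene whose name starts with Nduf, Uqcr, Atp5 or Cox4 to Cox8, together with Sdhb, Sdhc, Sdhd, Cyc1 and Cycs. This gave 110 probes of 87 genes, out of 25697 probes of 16593 genes on the arrays. Of these, 94 probes of 79 genes could be tested: some group had them detected, with a detection p under 0.01, on each of its arrays. The rule itself uses no measured value, but it was set with earlier results of these data known. Sdha was not analysed here. The symbol rule also takes in 5 complex I assembly factors with 6 tested probes (Ndufaf1, Ndufaf3, Ndufaf4, Ndufaf5 and Ndufaf7), which are not subunits. It further takes in the pseudogene symbol Ndufs5-ps, whose probe may read the related gene, so its value is uncertain.

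Oxidative phosphorylation passes electrons along the inner mitochondrial membrane and uses the resulting proton gradient to make ATP. Complex I takes electrons from NADH and complex II from succinate. Complex III passes them to cytochrome c, complex IV hands them to oxygen, and complex V is the ATP synthase. Each large complex combines catalytic or core subunits with many small accessory subunits that stabilise it. A few subunits are encoded by mitochondrial DNA and were not analysed here, so every value below is for a nuclear gene. Fibroblasts make ATP by this route and by glycolysis.

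The study compared wild-type (Wt) fibroblasts with fibroblasts homozygous for loss of Hmgb1 (KO), a gene for an abundant DNA-bending chromatin protein. Both genotypes came from embryos of crosses between Hmgb1+/- parents, 3 mothers in all, and were grown to passage 3. The 6 groups were Wt_cycling, KO_cycling, Wt_G1 and KO_G1, with 3 arrays each, and Wt_S and KO_S, with 2 arrays each. Cycling cells were not synchronised, and the labels name the G1 and S states without giving the synchronising agent. The allele is a germline one, so all cells of a KO culture carry it, and a fibroblast culture can hold other cell types.

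The labelled states were checked first. Of 26 probes of DNA replication genes, 21 were lower and none higher in G1 than in cycling cells (limma, adjusted p under 0.05), with the helicase subunit Mcm2 at -1.42 ± 0.15 on the log2 scale (SE; adjusted p = 3.89e-05, limma). In S, 14 of the 26 were higher than in G1 and 1 was lower. Of 9 fibroblast markers on the arrays, 8 were detected on all 16 arrays, among them Col1a1, Vim and Pdgfra. Among 4 leukocyte markers on the arrays, Adgre1, Lyz2 and Cd14 were also detected on all 16. The summed intensity of the leukocyte list was 7280 to 16600 in the cycling groups, 7720 to 49200 in Wt_G1 and 8390 to 30000 in KO_G1. It was 33800 to 36800 in Wt_S and 28600 to 31700 in KO_S. Detected on no array were 3 of 5 endothelial markers (Pecam1, Cdh5 and Kdr) and 3 of 6 muscle markers (Myod1, Myog and Ckm). The same held for 4 of 6 adipocyte markers, Adipoq and Ucp1 among them, and 3 of 4 neuron markers. The muscle markers Des and Acta1 and the neuron marker Map2 were detected on all 16. Each of 4 epithelial markers was detected on some array, and none on all 16. The summed intensity of the endothelial list was 262 to 263 in Wt_S and 179 to 186 in KO_S. The part of these markers in the members' values was not tested. The single Hmgb1 probe was detected on 1 of 16 arrays, so the genotype labels could not be checked with it. Mean intensity per array ranged from 393.8 to 776.1. The arrays lay on 2 slides: the cycling arrays and both G1 arrays numbered 3 on the first, the other G1 arrays and the S arrays on the second.

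From the rest, 2 arrays stood apart. KO_G1 replicate 1 had the lowest mean intensity, the fewest detected probes (9970) and correlated with its own group at as little as 0.881. Wt_cycling replicate 3 had an ordinary mean intensity (612.9) and number of detected probes (11513), and its lowest correlation within its group, 0.941, was shared with Wt_cycling replicate 2. It stood apart by the members described here, whose values had also served to single out both arrays in an earlier analysis. Results are therefore given with all 16 arrays first. Every count made without the 2 arrays was conditioned on the values it tests and is a description of the other 14 arrays.

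Across the 16 arrays the members moved together. The mean of the 94 probes, each taken as its difference from its own average over the arrays, was between 0.19 and 0.36 log2 units on 12 arrays. It was -1.10 on Wt_cycling replicate 3, -1.48 on KO_G1 replicate 1, and -0.26 and -0.27 on the KO_S arrays. On Wt_cycling replicate 3, 80 of the 94 probes lay below their own average, and on KO_G1 replicate 1, 93 did. The same mean over all 12078 tested probes lay between -0.06 and 0.03 on every array. Quantile normalization gives all arrays the same distribution, so this mean is held near zero in advance. Signals from bulk cultures are relative, so fewer cells with a gene's mRNA and less of it per cell cannot be told apart.

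**Figure D1:**
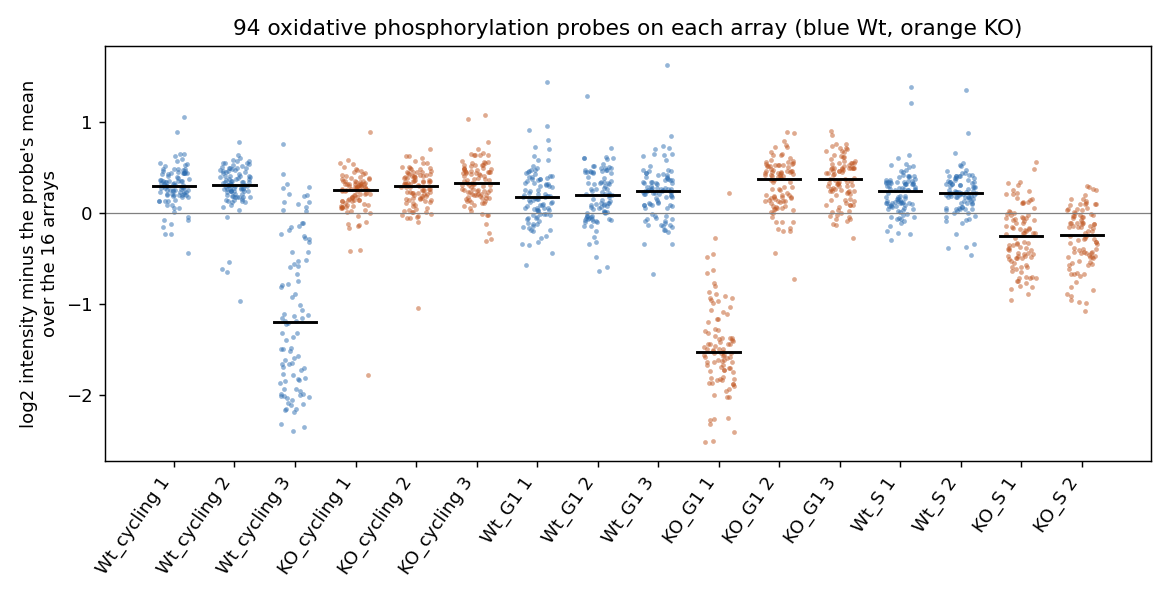
Normalized log2 intensity of the 94 tested member probes on each array, minus each probe's mean over the 16 arrays (points; blue Wt, orange KO; black lines are medians). Wt_cycling 3 and KO_G1 1 lie far below zero, both KO_S arrays lie moderately below it, and the other 12 arrays lie above it.

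The accessory subunit Ndufa3 of complex I (ILMN_2792560) shows the pattern in single values. Its log2 intensities were 11.35, 11.39 and 8.51 on Wt_cycling arrays 1, 2 and 3, and 11.20, 11.37 and 11.44 on the KO_cycling arrays. They were 11.48, 11.52 and 11.14 on the Wt_G1 arrays and 9.41, 11.69 and 11.54 on the KO_G1 arrays. In S they were 11.32 and 11.19 in Wt against 10.07 and 9.83 in KO. The 2 KO_S values lay below both Wt_S values and above the 2 single low arrays of the other states. Uqcr11, a small accessory subunit of complex III (ILMN_2871881), read 12.49, 12.58 and 9.92 in Wt_cycling, 10.20, 12.55 and 12.50 in KO_G1, 12.34 and 12.39 in Wt_S, and 11.23 and 11.02 in KO_S. Its other 6 values, of the KO_cycling and Wt_G1 arrays, lay between 12.32 and 12.64. Cox7c, a small subunit of complex IV (ILMN_2647188), read 12.41 and 12.47 in Wt_S against 11.55 and 11.61 in KO_S, and 9.99 and 10.07 on the 2 arrays that stood apart.

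Other members were not low on Wt_cycling replicate 3 or in KO_S. Atp5b, the catalytic beta subunit of the ATP synthase (ILMN_2598972), had the smallest standard deviation over the 16 arrays among the tested probes of complex V, 0.16. It read 14.69 on Wt_cycling replicate 3, against 14.77 and 14.67 on the other Wt_cycling arrays, and 14.68 and 14.63 in KO_S against 14.56 and 14.67 in Wt_S. Only KO_G1 replicate 1, at 14.09, lay below all the others. That value differed by -0.41 from the mean of the other KO_G1 arrays. Uqcrc2, a core protein of complex III (ILMN_2435140), read 12.87 on Wt_cycling replicate 3, its highest value on any array, and 11.81 on KO_G1 replicate 1, its lowest. Its KO_S values, 12.64 and 12.70, were above its Wt_S values, 12.51 and 12.44. Atp5a1, the alpha subunit of the ATP synthase head, was also highest on Wt_cycling replicate 3, at 12.25.

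**Figure D2:**
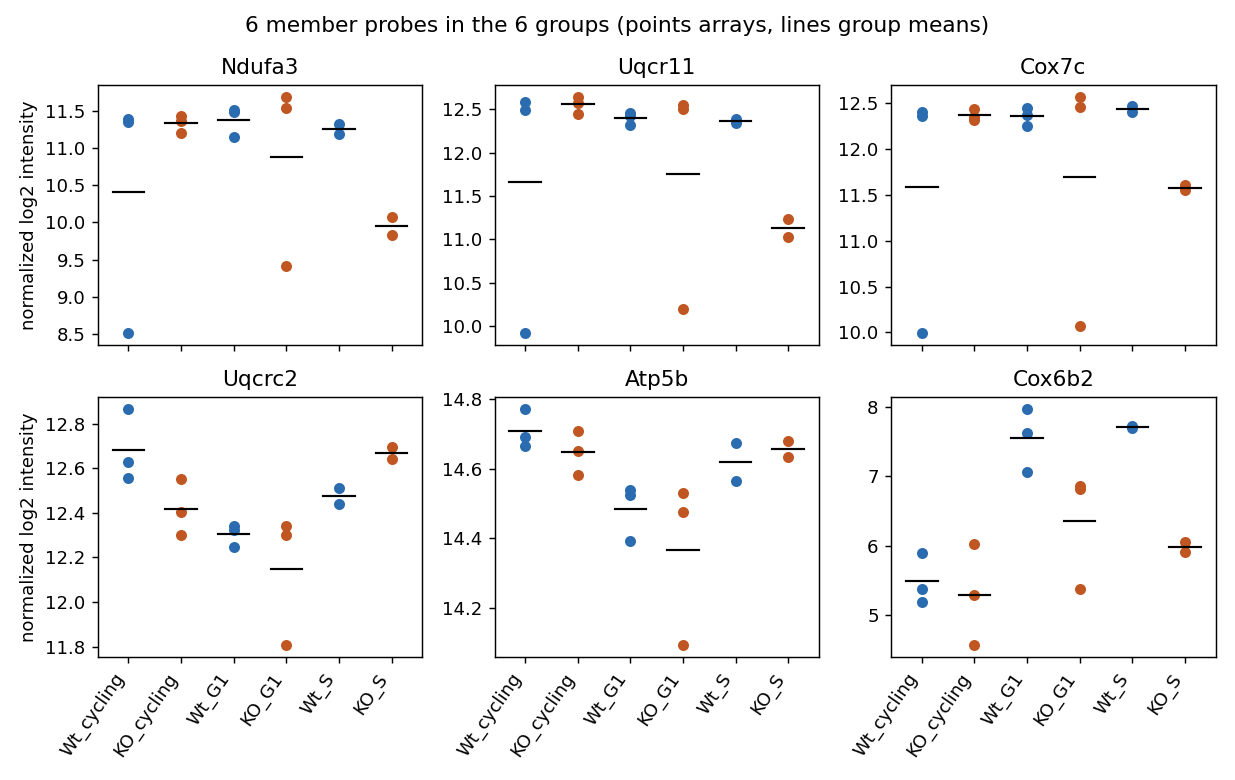
Normalized log2 intensity of 6 member probes in the 6 groups (points are arrays, lines are group means; blue Wt, orange KO; each panel has its own axis). Ndufa3, Uqcr11 and Cox7c are low on 1 Wt_cycling array, 1 KO_G1 array and both KO_S arrays; Uqcrc2 and Atp5b are not low in KO_S; Cox6b2 is higher in Wt_G1 and Wt_S than in cycling cells.

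By class medians, the size of the difference varied with the role of the subunit, most clearly in the Wt_cycling and S differences. The 3 differences that use separate arrays were set side by side: Wt_cycling replicate 3 minus Wt_cycling 1 and 2, KO_G1 replicate 1 minus KO_G1 2 and 3, and KO_S minus Wt_S. The first 2 set a single array against others of its group and have no test. For the 35 probes of complex I accessory subunits the medians were -1.92, -2.09 and -0.58 log2 units. Single probes of this class departed from them, with Ndufa9 at 0.03, -1.13 and -0.01 and Ndufa10 at -0.19, -1.07 and 0.25. For the 13 probes of the common complex IV subunits they were -1.96, -1.98 and -0.74, and for the 5 of complex III accessory subunits -1.99, -1.91 and -0.79. The ATP synthase c ring (3 probes, Atp5g1, Atp5g2 and Atp5g3), which turns with the proton flow, had -2.05, -2.29 and -0.54, and the small membrane subunits Atp5j2, Atp5l and Atp5mpl had -2.19, -2.03 and -0.82. The 5 peripheral stalk probes had -1.21, -1.88 and -0.44, with Atp5pb at 0.14 and Atp5o at 0.05 in S. Over all 12078 probes the medians were 0.11, 0.00 and 0.04.

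By median, the catalytic and core parts moved less in the Wt_cycling and S differences. The 5 complex I core probes (Ndufs3, Ndufs7, Ndufs8, Ndufv1 and Ndufv2), of the arm that takes electrons from NADH, had -0.78, -1.98 and -0.30. Among them Ndufs7 was at -1.61, -1.72 and -0.30. The 4 probes of complex II (Sdhb, Sdhc and Sdhd) had -0.55, -1.57 and -0.11. Complex III core probes (Uqcrc1, Uqcrc2 and the cytochrome Cyc1) had -0.09, -0.77 and 0.19, and the 5 probes of the ATP synthase head and central stalk had -0.38, -1.13 and 0.03. Within that head the small epsilon subunit Atp5e went with the accessory subunits, at -2.54, -1.96 and -0.88. The 6 assembly factor probes had -0.18, -1.26 and -0.03. On KO_G1 replicate 1 the median of every class was below zero, and 92 of the 94 members were below the other KO_G1 arrays.

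**Figure D3:**
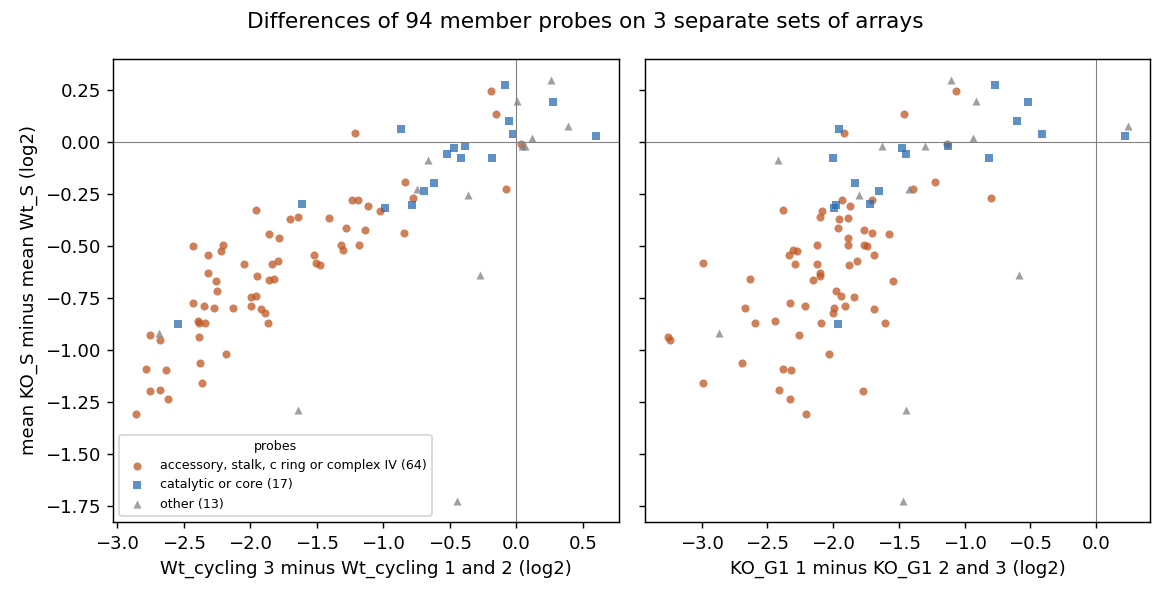
For each of the 94 tested member probes, the mean KO_S minus mean Wt_S difference (vertical, log2) against Wt_cycling 3 minus Wt_cycling 1 and 2 (left) and KO_G1 1 minus KO_G1 2 and 3 (right). Orange circles are accessory, stalk, c ring and complex IV probes (64), blue squares catalytic or core probes (17) and grey triangles the other 13; probes low on 1 axis tend to be low on the other, and most blue squares lie near zero on the vertical axis.

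The 3 differences ranked the members similarly. Over the 94 probes, Pearson's r was 0.808 between the Wt_cycling and S differences, 0.756 between the Wt_cycling and KO_G1 differences and 0.603 between the KO_G1 and S differences. Over all 12078 probes the same values were 0.315, 0.422 and 0.225. These are descriptions across probes of the same arrays, normalized together, and probes are not independent. The members lowest on average were Ndufb2, Ndufb7, Ndufc1, Ndufa3, Ndufa5, Uqcr11, Cox7b and Ndufs6, small subunits of complexes I, III or IV, together with the pseudogene symbol Ndufs5-ps. Ndufb2 (ILMN_2636435) was at -2.68, -3.24 and -0.95. The highest were Atp5a1 (0.60, 0.22 and 0.03) and the Cycs probe ILMN_3076459 (0.39, 0.24 and 0.08). This Cycs probe lay near background and was detected on 15 arrays. The brighter Cycs probe ILMN_3155380 was at 0.06, -1.63 and -0.02. Members with a shorter gene were lower in the Wt_cycling and S differences: the Spearman correlation of a member gene's genomic span with the difference was 0.300, 0.078 and 0.374, against 0.352, 0.441 and 0.230 over the 11385 probes with a span. The same correlation with mean signal lay between -0.127 and 0.041 over the members.

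Other gene groups moved on the same arrays. Probes of mitochondrial ribosomal proteins (96) had medians of -0.84, -1.62 and -0.17 in the 3 differences, and probes of cytosolic ribosomal proteins (72) had -0.99, -1.30 and -0.34. Proteasome subunits had -0.34, -1.04 and -0.03. Enzymes of the citrate cycle and pyruvate dehydrogenase, which feed the chain with electrons, had 0.26, -0.32 and 0.04, and mitochondrial carriers and porins had 0.14, -0.81 and 0.03. Whether RNA quality, labelling or any other property of these arrays had a part in the members' values was not tested.

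**Figure D4:**
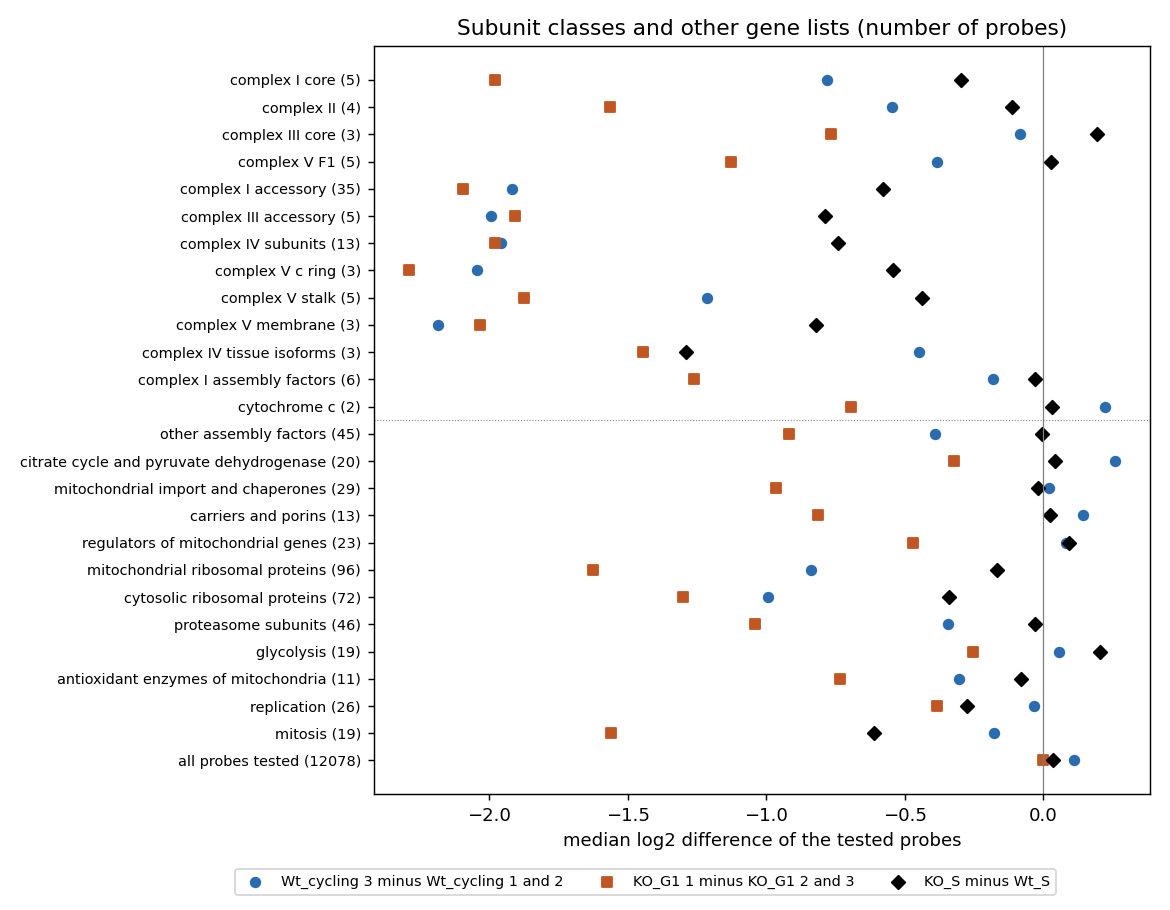
Median log2 difference of the tested probes in each subunit class (above the dotted line) and in other gene lists and all probes (below it), with the number of probes in brackets, for 3 differences: blue circles Wt_cycling 3 minus Wt_cycling 1 and 2, orange squares KO_G1 1 minus KO_G1 2 and 3, black diamonds KO_S minus Wt_S. In the Wt_cycling difference the accessory, c ring, membrane and complex IV classes lie furthest to the left; in the KO_G1 difference complex I core lies among them.

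The promoters of members that were most and least lowered are shown next, since these genes moved together to different extents. They are the 3 subunit genes with the lowest and the 3 with the highest mean of the 3 differences among the members with a promoter entry, leaving out assembly factors, tissue forms, the pseudogene, cytochrome c, Ndufa2 and Atp5a1. Each runs from 250 bases before to 50 after the gene start, 5′ to 3′ on the strand of the gene, from RefSeq on GRCm38.p6. Capitals mark matches on either strand to the letters of NRF1 (CGCNTGCGC), ETS factors (CCGGAA) or YY1 (GCCATNTT), overlaps included. The lowered genes come first: Ndufb2 at chr6:39592315-39592614 (plus strand), Ndufb7 at chr8:83566508-83566807 (plus strand) and Ndufc1 at chr3:51408906-51409205 (minus strand). The genes lowered least are Uqcrc1 at chr9:108936398-108936697 (plus strand), Sdhd at chr9:50603800-50604099 (minus strand) and Atp5b at chr10:128083057-128083356 (plus strand).
Ndufb2: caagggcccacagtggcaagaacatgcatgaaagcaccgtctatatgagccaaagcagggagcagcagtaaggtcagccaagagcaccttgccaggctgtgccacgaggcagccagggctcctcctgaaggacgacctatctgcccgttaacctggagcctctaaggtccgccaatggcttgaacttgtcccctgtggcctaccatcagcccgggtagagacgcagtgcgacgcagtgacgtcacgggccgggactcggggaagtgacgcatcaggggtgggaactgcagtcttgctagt
Ndufb7: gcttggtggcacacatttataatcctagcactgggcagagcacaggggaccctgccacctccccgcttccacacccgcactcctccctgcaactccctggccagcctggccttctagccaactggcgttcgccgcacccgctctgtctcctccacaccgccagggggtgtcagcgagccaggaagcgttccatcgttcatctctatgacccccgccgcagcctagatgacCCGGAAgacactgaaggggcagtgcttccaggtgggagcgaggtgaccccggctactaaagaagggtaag
Ndufc1: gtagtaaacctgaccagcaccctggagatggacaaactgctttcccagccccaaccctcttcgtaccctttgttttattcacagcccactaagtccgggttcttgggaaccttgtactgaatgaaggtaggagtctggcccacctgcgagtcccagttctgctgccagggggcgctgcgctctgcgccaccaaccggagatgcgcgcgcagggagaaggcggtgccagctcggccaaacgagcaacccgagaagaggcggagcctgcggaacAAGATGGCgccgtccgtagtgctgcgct
Uqcrc1: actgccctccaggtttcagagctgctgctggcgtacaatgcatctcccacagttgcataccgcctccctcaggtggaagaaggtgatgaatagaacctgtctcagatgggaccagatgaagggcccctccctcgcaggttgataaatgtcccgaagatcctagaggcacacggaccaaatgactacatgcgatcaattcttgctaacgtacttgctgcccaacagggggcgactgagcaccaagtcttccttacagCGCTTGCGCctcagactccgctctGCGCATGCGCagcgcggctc
Sdhd: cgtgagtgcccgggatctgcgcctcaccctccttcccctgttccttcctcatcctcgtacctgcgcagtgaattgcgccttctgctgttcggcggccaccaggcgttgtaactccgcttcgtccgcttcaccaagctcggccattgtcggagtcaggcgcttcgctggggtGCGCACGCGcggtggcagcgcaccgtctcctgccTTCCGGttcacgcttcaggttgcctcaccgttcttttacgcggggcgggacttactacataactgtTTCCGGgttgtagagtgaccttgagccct
Atp5b: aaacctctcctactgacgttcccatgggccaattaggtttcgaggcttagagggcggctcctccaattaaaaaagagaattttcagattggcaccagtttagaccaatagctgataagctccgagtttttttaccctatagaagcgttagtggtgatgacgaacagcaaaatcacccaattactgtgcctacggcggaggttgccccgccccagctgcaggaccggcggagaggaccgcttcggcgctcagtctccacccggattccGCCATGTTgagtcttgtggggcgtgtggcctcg

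Promoters were listed for 71 of the 87 members; the others are Ndufa2, Ndufb9, Ndufs1, Ndufs5-ps, Sdhc, Cyc1, Uqcrb, Uqcrc2, Uqcrq, Cox4i1, Cox4i2, Cox6a2, Cox6c, Cox8c, Atp5a1 and Atp5mpl. A match to the NRF1 letters was in 28.2% of them (20 of 71) against 7.03% of all 27025 genes with a promoter of the same length. The ETS letters were in 36.6% against 16.7%, the YY1 letters in 25.4% against 6.96%, the Sp1 letters GGGCGG in 46.5% against 38.2%, and CCAAT in 43.7% against 41.1%. The ERR letters TCAAGGTCA were in 2.82% against 0.466%. Of the 6 promoters shown, Uqcrc1 held 3 NRF1 matches, Sdhd 1 NRF1 and 2 ETS matches, Ndufb7 1 ETS match, and Ndufc1 and Atp5b 1 YY1 match each. Ndufb2 held none of the 3. A match describes these letters only.

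The next question was whether members depend on Hmgb1. With all 16 arrays, no member probe passed limma between KO and Wt as the mean of the 3 states, where 2.06% of all probes were called. At an unadjusted p under 0.05, 1 member passed, and 1 was called in a fit that blocked on replicate number. The median of the members was -0.17 on the log2 scale, 85 of 94 lay below zero, and the median of all probes was 0.00. The lowest adjusted p was 0.0569 (limma), for Cox6b2 (ILMN_2764551) at -1.04 ± 0.26 (SE, 8 arrays against 8). Without the 2 arrays that stood apart, 15 members were called, all lower in KO, against 9.76% of all probes called (4.71% lower). The median over all members was -0.12. Ndufa1, an accessory subunit of complex I, was at -0.46 ± 0.07 (adjusted p = 0.00432, limma) and Ndufa5 at -0.44 ± 0.07 (adjusted p = 0.00386, limma; ILMN_1216007) in that fit.

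In cycling cells and in G1 the array that stood apart set the members' median. No member was called in cycling cells, where 0.315% of all probes were, and none passed an unadjusted p under 0.05. The median difference was 0.45 (KO minus Wt), with Ndufb2 at 1.26 ± 0.79 the largest, and -0.04 without the 2 arrays. The median was -0.05 and -0.04 in the pairs numbered 1 and 2 and 1.58 in the pair numbered 3. In G1 no member was called (0.29% of all probes were), and 1 passed an unadjusted p under 0.05. The median was -0.48, and 0.14 without the 2 arrays. The pair numbered 1 had -1.77, and the other 2 pairs had 0.11 and 0.12. Without the 2 arrays no member was called in either state by limma, with 8 in cycling cells and 13 in G1 at an unadjusted p under 0.05, while 2.26% and 1.12% of all probes were called.

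In S the members were lower in KO on both arrays. Wt_S and KO_S values did not overlap for 76 of the 94 probes: KO was lower for 70 and higher for 6, while over all probes KO was lower without overlap for 28.4% and higher for 34.9%. The median of the members was -0.49 against 0.04 for all probes, and the pairs numbered 1 and 2 had -0.53 and -0.46. In the fit to all 16 arrays, whose estimate of the spread includes the 2 arrays that stood apart, no member passed (lowest adjusted p 0.46, limma; 2 at an unadjusted p under 0.05), with 0.232% of all probes called. Without these arrays 33 probes of 27 genes fell, none rose, and 3.98% of all probes were called (2.86% lower). In a fit to the 4 S arrays alone, 50 probes of 43 genes fell (53.2% of the members) and none rose, against 16.5% of all probes called (9.86% lower), and the 50 include all 33. Leaving out Cox7a1, which passed the detection filter through Wt_S alone, 49 probes of 42 genes fell. That fit rests on 2 arrays a group that correlated at 0.994 or more, so its p-values measure only the spread between these very similar samples.

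By role, the 4 S arrays alone called 23 of 35 complex I accessory probes, 5 of 5 complex III accessory probes, 10 of 13 common complex IV probes, 2 of 3 c ring probes, 2 of 5 peripheral stalk probes and 3 of 3 small membrane probes of complex V. It also called the tissue forms Cox6b2 and Cox6a2 of complex IV and Ndufs5-ps. Without the 2 arrays that stood apart the counts were 13 of 35, 4 of 5, 8 of 13, 0 of 3, 1 of 5 and 3 of 3 in the same order, and with all 16 arrays none was called. Of 17 catalytic and core probes 1 was called, Atp5e. None of 6 assembly factor probes and neither Cycs probe was called. In that fit Ndufa3 fell by 1.31 ± 0.12 (SE; 2.47-fold; adjusted p = 0.00702, limma) and Uqcr11 by 1.23 ± 0.11 (adjusted p = 0.00652, limma). Ndufa1 fell 2.29-fold (adjusted p = 0.00652, limma), Ndufs6, a zinc-binding accessory subunit, by 1.10 ± 0.09, and Atp5j2, a small membrane subunit of the ATP synthase, by 1.02 ± 0.09. Ndufa5 fell at both of its probes, by 1.19 ± 0.09 and 1.09 ± 0.11, and Ndufc1 at both, by 1.16 ± 0.10 and 0.79 ± 0.09. Cox7b fell by 1.06 ± 0.19, Cox7a2 by 0.87 ± 0.13, Cox7c by 0.86 ± 0.10 and Cox5b by 0.72 ± 0.11. Among these, the Cox7b call ended without the 2 arrays (adjusted p = 0.0581, limma).

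Other members had a smaller difference in S and did not pass. Ndufv1, which binds NADH in complex I, was at -0.07 ± 0.11, and Cyc1, the haem-bearing cytochrome of complex III, at -0.06 ± 0.11. Sdhb, the iron-sulphur subunit of complex II, was at -0.20 ± 0.10 and -0.23 ± 0.14 at its tested probes. Atp5a1 was at 0.03 ± 0.11, Atp5b at 0.04 ± 0.10 and Uqcrc2 at 0.19 ± 0.10. Cox4i1, a regulatory subunit of complex IV, was at -0.42 ± 0.12 and Cox5a at -0.28 ± 0.09. None of these passed limma in the fit to the S arrays alone (adjusted p from 0.0757 for Cox4i1 to 0.878 for Atp5a1). A p over the threshold does not show that they were equal.

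Other lists moved in S as well. On the 4 S arrays alone, 28 of 72 probes of cytosolic ribosomal proteins fell, with the small ribosomal protein Rpl38 at -0.89 ± 0.10, and 17 of 96 of mitochondrial ribosomal proteins, with Mrpl52 at -1.11 ± 0.10; none rose. Of 19 probes of mitosis genes, 13 fell and all 19 lay below zero, with a median of -0.61, and Birc5, a subunit of the chromosomal passenger complex, was at -1.18 ± 0.09 (ILMN_2632712). Of 26 replication probes 5 fell, with a median of -0.28. The part of these cell cycle genes in the members' values was not tested. None of 20 citrate cycle probes passed the test, and of 19 glycolysis probes 3 rose, Slc2a1, Hk2 and Pfkm, with none lower. Among 23 probes of regulators of mitochondrial genes, Gabpa (0.67 ± 0.12), Gabpb1 (0.50 ± 0.09, ILMN_2646381) and Mterf1a (ILMN_2714874) rose. The products of Gabpa and Gabpb1 form an ETS-family activator. Polg2, a subunit of the mitochondrial DNA polymerase, fell (-0.94 ± 0.11). Other probes of Gabpb1 (ILMN_2646380), Mterf1a (ILMN_2624809) and Pfkm (ILMN_2628892) did not pass. Of 45 probes of assembly factors without a member symbol 7 fell and 1 rose. Uqcc2 (-0.87 ± 0.10), Cox14 (-0.73 ± 0.10) and the copper chaperone Cox17 (-0.71 ± 0.10) fell.

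Whether the genotype difference changed with the state was tested as an interaction. With all 16 arrays no member was called for G1 against cycling or for S against G1 (limma; 0.00828% and 0% of all probes called; no member at an unadjusted p under 0.05 in either). Without the 2 arrays, no member was called for G1 against cycling (limma; 0.0411% of all probes called; 15 members at an unadjusted p under 0.05). For S against G1, 19 probes of 16 genes were called, all with a lower KO minus Wt difference in S, against 0.879% of all probes (0.829% lower). The members' median was 0.00 with all 16 arrays (48 above zero and 46 below) and -0.67 without the 2, since leaving out KO_G1 replicate 1 turned the G1 median. Ndufc1 (ILMN_2983247) had the lowest p, at -1.55 ± 0.16 (adjusted p = 0.015, limma), and Uqcr11 was at -1.36 ± 0.17 (adjusted p = 0.015, limma).

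The states were then compared as the mean of both genotypes. In G1 against cycling cells 4 members were called of 94 (4.26%), against 19.8% of all probes, and the members' median was -0.08. Cox6b2, a form of complex IV subunit 6B best known from testis, rose by 1.56 ± 0.30 (SE; adjusted p = 0.00235, limma), measured against cycling groups in which it was detected on 1 of 3 arrays each. The alpha subunit Atp5a1 fell by 0.51 ± 0.15 (adjusted p = 0.0319, limma), the complex III core protein Uqcrc1 by 0.52 ± 0.15 (adjusted p = 0.027, limma), and the complex I assembly factor Ndufaf7 by 0.57 ± 0.19 (adjusted p = 0.0459, limma). The 3 falling calls ended once slide was a blocking term (limma adjusted p from 0.301 to 0.401), and within slide 1 the differences were -0.38 for Atp5a1, -0.34 for Uqcrc1 and -0.52 for Ndufaf7. Leaving out single arrays ended the calls of Atp5a1 and Uqcrc1 in 6 of 16 cases each and that of Ndufaf7 in 12, with limma adjusted p up to 0.0952. Without the 2 arrays 12 members were called (12.8%), 10 lower and 2 higher, against 34.7% of all probes. The 2 higher were Cox6b2 at 1.74 ± 0.26 and Ndufv3 (ILMN_2668977) at 0.29 ± 0.08. Among the 10 lower were the flavoprotein subunit Ndufv2 at -0.47 ± 0.07 (adjusted p = 0.000777, limma), Ndufs7 at -0.40 ± 0.09, Cox5a at -0.29 ± 0.07 and Cyc1 at -0.28 ± 0.08. There the Ndufaf7 call ended (adjusted p = 0.0549, limma).

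In S against cycling cells 1 member was called of 94, Cox6b2 at 1.45 ± 0.33 (adjusted p = 0.016, limma), against 8.11% of all probes. The Cox6b2 group means in cycling cells and S were 5.485 and 7.704 in Wt, and 5.291 and 5.977 in KO. The Cox6b2 call in S ended when any 1 of the S arrays was left out (adjusted p from 0.0631 to 0.0768). It also ended once slide was a blocking term (2.11, adjusted p = 0.139, limma). In S against G1 no member was called by limma, against 11.4% of all probes, and 3 passed an unadjusted p under 0.05; 1 was called with the replicate number as a block. Without the 2 arrays, 44 members were lower and 4 higher in S than in G1 (35.5% of all probes called, 17.5% lower), the 4 being Atp5a1, Uqcrc2, Cyc1 and Sdhc. Against cycling cells 51 were lower and 1 was higher (29% of all probes called, 14.9% lower). Taken within a genotype, without the same arrays, S against G1 gave 1 rise and 51 falls in KO, with a median of -0.61, and 1 rise and 5 falls in Wt, with a median of 0.03; 21.6% and 14.9% of all probes were called (11.4% and 7.65% lower). Against cycling cells KO gave 53 falls and no rise, and Wt 2 rises and no fall, with 20.1% (10.6% lower) and 10.1% of all probes called. These comparisons within a genotype were chosen after the data were seen. No slide held both cycling and S arrays. The part of slide in the counts against cycling cells, made without the 2 arrays, was not tested.

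The Cox6b2 probe ILMN_1229627 was detected on 2 of 16 arrays, with group means of 4.37 to 5.28, and was not tested. All Cox6b2 results here thus rest on 1 probe. That probe (ILMN_2764551) differed from the other members in its levels. It read 5.90, 5.37 and 5.19 in Wt_cycling and 4.56, 5.29 and 6.03 in KO_cycling, and was detected on 1 array of each, so cycling values are at or near background. It read 7.07, 7.62 and 7.97 in Wt_G1, 5.37, 6.86 and 6.81 in KO_G1, 7.72 and 7.69 in Wt_S, and 5.90 and 6.05 in KO_S. All Wt_G1 and Wt_S values lay above all cycling values, and all Wt_G1 values above all KO_G1 values. The KO_S values, 5.90 and 6.05, lay near the highest cycling value, 6.03. The rise in G1 passed in each of the 16 leave-one-out fits, between 1.38 and 1.83, and within slide 1 it was 2.00. In S it was 1.73 ± 0.10 lower in KO in the fit to the S arrays alone (3.31-fold; adjusted p = 0.00283, limma). The common form Cox6b1 was at -0.80 ± 0.09 (ILMN_2616405) and -0.78 ± 0.11 (ILMN_1254971) there.

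Of the other tissue forms of complex IV, the heart and muscle form Cox6a2 (ILMN_2629581) read 7.52 and 7.19 in Wt_S against 5.83 and 6.30 in KO_S, and was at -1.29 ± 0.20 (adjusted p = 0.0182, limma) in the S fit. Its common counterpart Cox6a1 was at -0.74 ± 0.09 and -0.74 ± 0.12 at its 2 probes. Cox7a1, another muscle form, was detected on 3 arrays, among them both Wt_S arrays and no KO_S array, which gives a fold of at least 1.01 (measured means 5.31 and 4.67). Cox7a1 entered the test only through the Wt_S arrays on which it was detected, so its difference in S is a description. Cox7a2, its common form, fell by 0.87, and Cox7a2l, which joins complexes III and IV, was at -0.02 ± 0.10. The fold for Cox7a1 is measured against the lowest signal of a detected probe. Cox4i2, Cox7b2, Cox8b and Cox8c were detected on no array, and Cox8a, the common form of subunit 8, fell by 0.64 ± 0.10 in S. The muscle markers Myod1, Myog and Ckm were detected on no array, while Des and Acta1 were detected on all 16. The summed intensity of the muscle list was 1690 to 1810 in Wt_S and 873 to 889 in KO_S, and its part in these values was not tested.

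Tested probes of a gene mostly varied together over the arrays. For 12 of the 13 genes with several tested probes, log2 values over the 16 arrays correlated at 0.854 to 0.991. The exception was Cycs, which encodes cytochrome c, at 0.027, where the probe ILMN_3155380 lay between 7.17 and 9.16 and ILMN_3076459 between 5.43 and 6.56. Most members were low on the same arrays, so correlations this high may also arise between probes of different genes, which was not tested. A further 16 member probes could not be tested, and 11 member probes were detected on no array. Some of the 16 belonged to genes that also had a tested probe: Ndufaf7, Ndufb11, Ndufv3, Sdhb, Sdhc, Cox6b2 and Atp5j. These untested probes were each detected on 5 arrays at most. Among the genes without a tested probe were Ndufs1, the largest subunit of complex I, Uqcrfs1, the iron-sulphur protein of complex III, Uqcrq and Atp5k. A probe that reads no signal says nothing of the level of such common subunits.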

How the data were processed

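Per the labels' protocols, RNA was extracted with mirVana and labelled as biotinylated cRNA. The authors processed the arrays with BeadStudio 3.0, per the submitters' processing notes. For each probe the authors deposited an average intensity without normalization. A detection p-value stands beside it, per the file headers. The authors' value table of intensities served as an alternative. The genome build of the probes is not given in the sources used here, and 1719 of 25697 probes have no symbol.

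Intensities were background-corrected from the detection p-values, offset by 16 and quantile normalized on the log2 scale (neqc, limma 3.58.1, R 4.3.3). A limma model with a mean for each of 6 groups was fitted to the 12078 probes detected in at least 1 group, with Benjamini-Hochberg adjustment over all and calls at an adjusted p under 0.05. For the mean of states, the replicate number within genotype was a random block (statmod 1.5.0, correlation -0.0106). The script was tested on simulated data. The number of arrays limits the precision.

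Replicate numbers were taken as Wt and KO pairs from the series description, which pairs embryos of a single mother. Same-numbered arrays deviated together at 0.189 to 0.388 in cycling cells, 0.357 to 0.423 in G1 and 0.0644 in S. Differently numbered arrays ranged from -0.307 to 0.246 in cycling cells, where Wt 1 with KO 2 and Wt 2 with KO 1 exceeded their own pairs, and from -0.396 to 0.276 in G1. Deviations were taken from group means and sum to zero within a group, so part of this contrast is fixed in advance. In S, with 2 arrays a group, differently numbered arrays must have the same value with the opposite sign.

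Named members are those called, the 5 largest each way in a comparison, those of extreme spread in a complex, fixed representatives and isoform sets; a few more were named after their values were seen. Members and lists were chosen with earlier results of these data known. Alternatives were other backgrounds, scalings, filters, blocks, array weights and arrays left out.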

Additional observations from a re-analysis of the deposited data

Results flagged for a closer look

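The difference between the KO effect in S and the KO effect in G1 is put forward because a test of the difference itself, an interaction term in limma, called 19 member probes without Wt_cycling replicate 3 and KO_G1 replicate 1, all lower in S. No member was called with all 16 arrays, where the members' median was 0.00 (48 above zero, 46 below), against -0.67 without the 2 arrays. Both arrays had been singled out by the members' own low values, so the 19 calls are conditioned on those values and describe the other 14 arrays. Of these arrays, KO_G1 replicate 1 belongs to a group in the contrast. Leaving out either of the 2 arrays alone called none.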

How the results depend on the processing

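Counts here are member probes called by limma, beside the value with all 16 arrays. The share of all probes called is given above for all 16 arrays, without both arrays and for the S arrays alone. It is not given for the other settings, array weights among them. Counts under those settings thus cannot be read as particular to the members. For KO against Wt as the mean of states (0), there was 1 without background correction, 1 with an offset of 50, 1 in the authors' value table, 1 with the replicate block and 1 with the replicate block within state, 6 with array weights (which also dropped the random block), and 15 without Wt_cycling replicate 3 and KO_G1 replicate 1 together. In cycling cells (0), array weights gave 3. In S (0), array weights gave 51, the groups compared alone 50, and leaving out both arrays 33; 70 probes did not overlap with KO lower. For G1 against cycling (4), median scaling gave 1, no background correction 7, the slide as a block 1, array weights 14, the groups compared alone 1, and leaving out both arrays 12. For S against G1 (0), no background correction, the authors' table, the replicate block and the slide block gave 1 each, array weights 49, and leaving out both arrays 48 (within Wt 6, within KO 52). For S against cycling (1), the filter for probes detected on all arrays gave 0, as it leaves out Cox6b2, the slide block 0, array weights 53, and leaving out both arrays 52 (within Wt 2, within KO 53). For the KO effect in S against G1 (0), array weights gave 2 and leaving out both arrays 19. Leaving out each array in turn gave 0 to 1 for the mean of states (1 without KO_cycling replicate 3, Wt_G1 replicate 1, KO_G1 replicate 1 or KO_G1 replicate 2), 0 in cycling cells, G1 and S, 1 to 6 for G1 against cycling, 0 to 4 for S against G1 (4 without KO_G1 replicate 1), 0 to 1 for S against cycling, and 0 for both interactions. In G1 against cycling, 1 call was left without Wt_cycling replicate 1, KO_cycling replicate 3 or KO_cycling replicate 2. The Atp5a1 call ended without Wt_cycling 1 or 3, KO_cycling 2 or 3, Wt_G1 2 or KO_G1 2, that of Uqcrc1 without Wt_cycling 1, any KO_cycling array, Wt_G1 1 or Wt_G1 3, and that of Ndufaf7 without any cycling or S array, Wt_G1 1 or Wt_G1 3. The cause of these changes was not tested. The 4 members called for G1 against cycling, and Cox6b2 for S against cycling, kept their direction under the alternatives run. Differences not called with all 16 arrays often did not: without both arrays 77 of 94 members turned in KO against Wt in G1 and 41 in cycling cells, Ndufa3 from 0.92 to -0.03 in cycling cells and from -0.50 to 0.23 in G1, and the members' median from -0.48 to 0.14 in G1 and from 0.45 to -0.04 in cycling cells. Of the members called only without both arrays, 2 for S against G1 and 6 for S against cycling had the opposite sign with all 16. Apart from the counts given, the replicate block changed no count of calls by over 1.5 times. With median scaling the mean of the members on KO_G1 replicate 1 was -2.07 instead of -1.48. Signal over background limits Cox6b2 in cycling cells and Cox7a1 throughout.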
